A study of Rattus norvegicus with 10 samples.

Results

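The genes described here are mRNAs that have been reported, in tissues other than the oligodendrocyte (OL) lineage, as targets of miR-145. Of the 9 genes chosen by symbol, 8 were found in the deposited tables and were tested, namely Klf4, Klf5, Fli1, Irs1, Tgfbr2, Smad3, Adam17 and Ppp3ca. The remaining gene, Fscn1, is not analysed here. The count table holds 23487 genes in all. RNAseq was performed on primary OL progenitor cells (OPCs) shaken from mixed glial cultures of neonatal Sprague-Dawley rat cortex, and on OLs differentiated from such OPCs, in 10 libraries, 2 for each of 5 groups. OLs were collected 5 days after transfection with a miR-145-5p mimic (miR-145), with miR-145-5p and miR-219 mimics together (miR-145+miR-219), or with a scrambled mimic (miR-ctl). OPCs were collected 24 h after transfection with an inhibitor of miR-145-5p (anti-miR-145) or a scrambled inhibitor (anti-miR-ctl). Per the labels, each oligonucleotide was used at 30 nM. The study's methods name lentiviral transduction for RNAseq of miR-145 overexpression, whereas its results and the labels name mimics, so how miR-145 was delivered to the OLs rests on the labels here. The treatment tag of the OL miR-145 libraries also names miR-219, whereas their titles and descriptions give miR-145 by itself, which set their group here. Cultures purified by shaking and differential adhesion retain other glia, so the levels below are those of a mixed culture. Levels of mature miR-145-5p were not analysed here.

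MicroRNAs guide Argonaute proteins to mRNAs, chiefly through pairing of the seed near the 5′ end of the microRNA with sites in the 3′ untranslated region, which lowers the stability and the translation of the mRNA. MiR-145 is best known from smooth muscle, where it favours the contractile state, and from epithelial tumours, where its loss accompanies growth. Klf4 and Klf5 are Krüppel-like transcription factors, and Fli1 is an ETS family transcription factor of blood, endothelial and myeloid cells. Irs1 couples the insulin and IGF1 receptors to PI3 kinase. Tgfbr2 is the ligand-binding TGF-β receptor, and Smad3 carries the signal of the activated receptor complex to the nucleus. Adam17 sheds membrane proteins such as TNF and the EGF receptor ligands, and Ppp3ca is a catalytic subunit of the calcium-dependent phosphatase calcineurin.

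The mature sequences of miR-145-5p and miR-219a-5p are shown because their seeds define the mRNA sites that each can pair with. The sample titles name miR-219 without its mature form, and miR-219a-5p was assumed here. The seed, bases 2 to 8, is in capitals, and sequences and positions are from RefSeq on the rat build GRCr8. The miR-145-5p mimic has the sequence of the mature microRNA, which lies on the minus strand at chr18:57370033-57370055. MiR-219a-5p lies on the minus strand at chr3:33516561-33516581.
rno-miR-145-5p: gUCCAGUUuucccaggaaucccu
rno-miR-219a-5p: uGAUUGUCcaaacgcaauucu
The 2 seeds share no 7-base site, since AACUGGA is the complement of the miR-145-5p seed and GACAAUC that of the miR-219a-5p seed. Each seed was carried by 1 of the 693 rat mature microRNAs in the RefSeq table. Sites in the mRNAs of the 8 genes were not searched, as no transcript sequence was used here.

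Library totals ran from 33505706 to 42684206 estimated counts. Levels are given as CPM, counts scaled to the same library total, after TMM normalization over the 10 libraries, and a gene's level is compared between samples but not with that of another gene, because CPM is not corrected for length. At this depth Klf4, the gene of lowest level, had 20 to 133 counts per library, so its relative counting error is the largest of the 8. Defining OL markers separated the stages, with a summed level of 10 markers of 16070 to 35490 CPM in OL libraries and 1164 to 1349 CPM in OPC libraries. The summed level of 7 OPC markers did not, at 2752 to 4649 CPM in OL libraries and 3859 to 5039 CPM in OPC libraries. Between the controls of the 2 stages 3 OPC markers were called higher and 3 lower in OLs, against 28.8% higher and 28.7% lower over all genes. The 14 microglia markers were present in every library, at 446.7 to 1180 CPM in OLs and 1045 to 1369 CPM in OPCs. Since these are bulk samples, fewer cells of a type and less RNA per cell cannot be told apart.

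**Figure D1:**
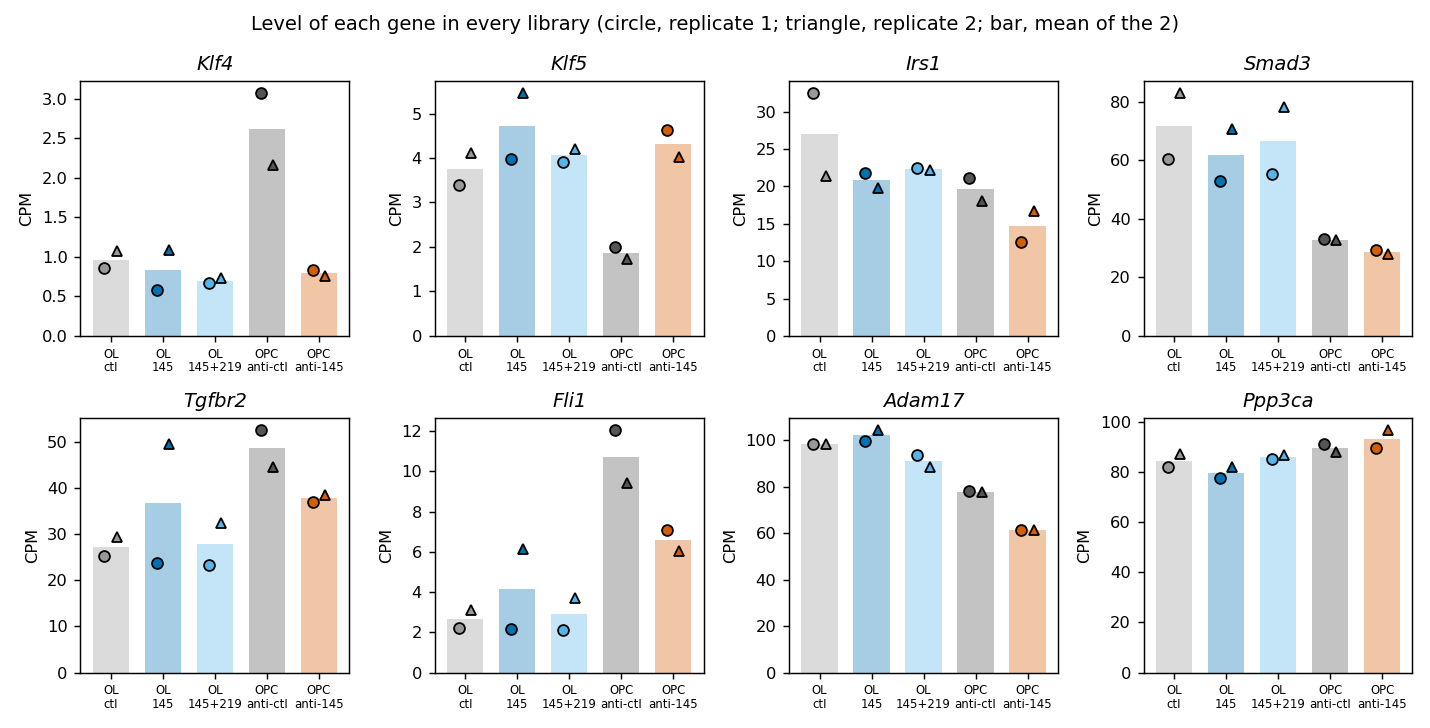
Level of each of the 8 genes in CPM (vertical axis, from 0) in the 5 groups. Each symbol is a library, a circle for replicate 1 and a triangle for replicate 2, and each bar is the mean of the 2. Klf4 is highest and Klf5 lowest in OPC anti-miR-ctl, Adam17 differs little between replicates, and Fli1 and Tgfbr2 lie apart in the 2 OL miR-145 libraries.

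To ask whether added miR-145 lowers these mRNAs, OL miR-145 was compared with OL miR-ctl. Of the 8 genes, 0 were called at an adjusted p under 0.05 (edgeR quasi-likelihood test, Benjamini-Hochberg adjustment over all genes), and 0.0% of the 15461 genes tested were called. At an unadjusted p under 0.05 there were also 0 of the 8, against 13.4% of all genes, and DESeq2 called 0 of the 8, against 4.2% of all genes. Of the 8, 4 had a positive and 4 a negative log2 fold change. Their median was -0.01, as it was over all genes.

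Irs1 had the most negative estimate. Its level was 21.8 and 19.8 CPM with miR-145 and 32.5 and 21.5 CPM with miR-ctl. A single miR-ctl library stood above the other three, which overlapped. The log2 fold change was -0.37 (standard error 0.22, 95% confidence interval -0.92 to 0.18, adjusted p = 0.508), and without miR-ctl replicate 1 it was -0.04. Klf4 was measured at 0.575 and 1.09 CPM with miR-145 and at 0.854 and 1.07 CPM with miR-ctl. The 2 miR-145 libraries thus spanned both controls, and the log2 fold change of -0.20 had an interval of -1.33 to 0.93 (adjusted p = 0.88). Smad3 was at 52.8 and 70.7 CPM with miR-145 and at 60.6 and 82.9 CPM with miR-ctl, and replicate 2 was the higher library in both groups. Its log2 fold change was -0.21 (interval -0.75 to 0.33, adjusted p = 0.706).

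Ppp3ca and Adam17 were the most precisely measured of the 8. Ppp3ca stood at 77.7 and 81.8 CPM with miR-145 and at 81.8 and 87.1 CPM with miR-ctl, where the highest miR-145 library and the lowest miR-ctl library met. The log2 fold change was -0.08 with an interval of -0.34 to 0.19 (adjusted p = 0.794). Adam17 was at 99.8 and 104 CPM with miR-145 and at 98.4 and 98.5 CPM with miR-ctl. It was the only gene of the 8 whose groups did not overlap, a state shared by 47.3% of all genes, and the difference was small (log2 fold change 0.06, interval -0.20 to 0.32, adjusted p = 0.837). For these 2 genes the interval's lower bound was a log2 fold change of -0.34 and -0.20, so larger falls lay outside it.

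Klf5, Fli1 and Tgfbr2 had positive estimates. Klf5 was at 3.97 and 5.46 CPM with miR-145 and at 3.39 and 4.11 CPM with miR-ctl. Its log2 fold change was 0.34 (interval -0.35 to 1.03, adjusted p = 0.624). Fli1 was at 2.18 CPM in replicate 1 and 6.17 CPM in replicate 2 of miR-145, and at 2.21 and 3.10 CPM with miR-ctl. Tgfbr2 was at 23.8 and 49.5 CPM in the same miR-145 libraries and at 25.1 and 29.3 CPM with miR-ctl. For both genes replicate 1 of miR-145 lay below both controls and replicate 2 above them. The log2 fold changes were 0.67 for Fli1 (interval -0.66 to 1.99, adjusted p = 0.617) and 0.44 for Tgfbr2 (interval -0.43 to 1.31, adjusted p = 0.616), and without miR-145 replicate 2 they were -0.27 and -0.19. That library also held the highest microglia marker sum among the OLs, 1180 CPM, where replicate 1 held 484.2 CPM and the miR-ctl libraries 474.4 and 689.2 CPM. It also held the highest fibroblast and mural marker sum of the 10 libraries, 103.4 CPM, against 64.4 CPM in replicate 1 and 39.14 and 29.46 CPM with miR-ctl, with the collagen gene Col3a1 at 29.9 CPM where replicate 1 had 3.05 CPM. The astrocyte marker sum was 13120 CPM in replicate 1 and 8929 CPM in replicate 2 of miR-145, and 6417 and 5395 CPM with miR-ctl. All 14 microglia, all 6 tested fibroblast and mural and all 8 astrocyte markers had a positive log2 fold change in this comparison, none called. At an unadjusted p under 0.05 there were 3, 6 and 6, against 13.4% of all genes. Among the 6, Acta2 passed the filter on low counts only through the miR-145 libraries, so its sign was set by the filter. Its levels were 0.518 and 0.177 CPM with miR-145 and 0.0502 and 0.0613 CPM with miR-ctl. Dcn was found but did not pass the filter. The part of RNA from these cells in the Fli1 and Tgfbr2 values was not tested.

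When miR-219 was added to miR-145, the 8 genes were again not called. Relative to miR-ctl 0 of the 8 were called, against 0.0% of 15436 genes. DESeq2 called 0 of the 8 and 0.687% of all genes, and at an unadjusted p under 0.05 there were 0 of the 8 and 6.19% of all genes. Log2 fold changes ran from -0.46 for Klf4 (interval -1.36 to 0.45, adjusted p = 0.872) to 0.15 for Fli1 (interval -0.80 to 1.09, adjusted p = 0.975). Klf4 was at 0.663 and 0.730 CPM, and both libraries lay below both miR-ctl libraries. Adam17, at 93.6 and 88.6 CPM, also lay below both miR-ctl libraries, with a log2 fold change of -0.11 (interval -0.35 to 0.14, adjusted p = 0.894). These were the only 2 of the 8 without overlap, where 36.8% of all genes had none. Both mimic groups were compared with the same 2 miR-ctl libraries, so their fold changes are not independent.

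Set directly against miR-145 alone, miR-145+miR-219 had 0 of the 8 genes called, against 0.0% of 15501 genes. DESeq2 called 0 of the 8 and 0.0581% of all genes, and 0 of the 8 and 1.47% of all genes had an unadjusted p under 0.05. Fli1 was at 2.14 and 3.71 CPM with both mimics, and Tgfbr2 at 23.4 and 32.4 CPM. These levels lay below those of miR-145 replicate 2 and near the miR-ctl levels. Log2 fold changes were -0.54 for Fli1 (interval -2.04 to 0.97) and -0.41 for Tgfbr2 (interval -1.42 to 0.60), both with an adjusted p of 1.0. Irs1, at 22.5 and 22.2 CPM, and Ppp3ca, at 85.2 and 86.6 CPM, were higher in both libraries than with miR-145 alone. Their differences were 0.10 (interval -0.21 to 0.40) and 0.10 (interval -0.16 to 0.35) on the log2 scale. Adam17 was lower in both, by -0.17 (interval -0.44 to 0.09), and these 3 of the 8 were without overlap, as were 24.8% of all genes.

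**Figure D2:**
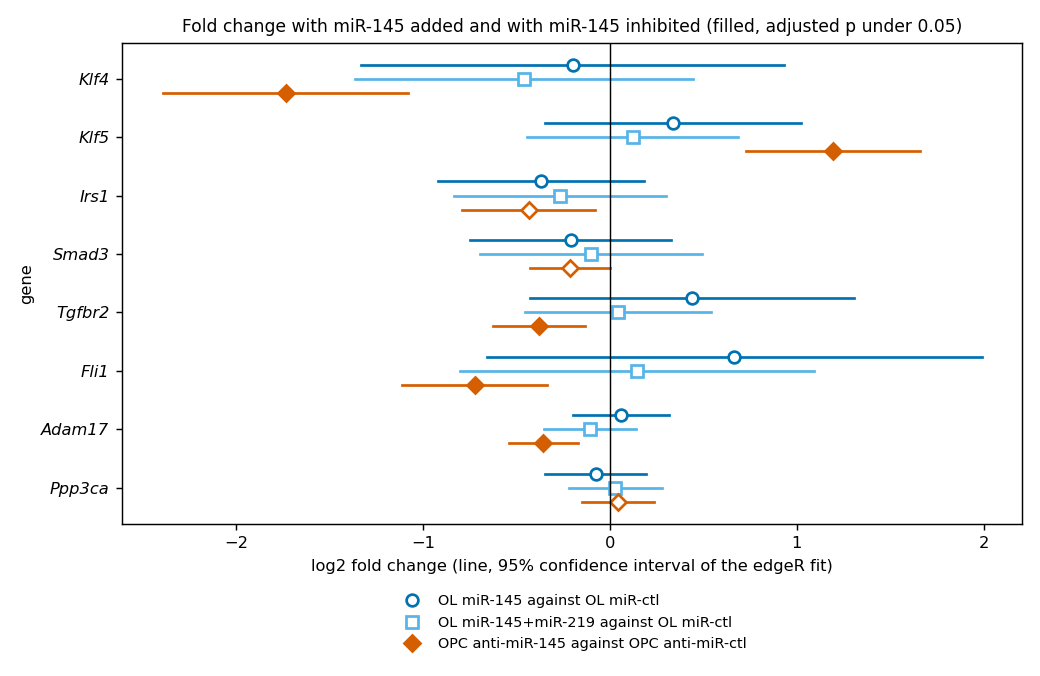
Log2 fold change of each gene (horizontal axis) with its 95% confidence interval (line) for OL miR-145 and OL miR-145+miR-219 against OL miR-ctl and for OPC anti-miR-145 against OPC anti-miR-ctl. Filled symbols have an adjusted p under 0.05, which 5 genes reach in OPCs and 0 reach in OLs. Klf5 is the only filled symbol to the right of 0.

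In OPCs, the converse question was whether inhibition of miR-145 raises these mRNAs. Of the 8 genes, 5 were called, where 28.1% of 15496 genes were called. Klf5 alone rose, and Klf4, Fli1, Adam17 and Tgfbr2 fell, against a background of 12.1% called higher and 16.0% called lower over all genes. The median log2 fold change of the 8 was -0.37, and that over all genes was 0.00. For 7 of the 8, all but Ppp3ca, the anti-miR-145 and anti-miR-ctl libraries did not overlap, which 68.5% of all genes also showed. Leaving out anti-miR-ctl replicate 1 left 2 of the 8 called, Klf4 and Klf5, and 2348 of all genes in place of 4348.

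The 2 Krüppel-like factors changed in opposite directions. Klf5 was at 4.62 and 4.02 CPM with anti-miR-145 and at 2.01 and 1.72 CPM with anti-miR-ctl. Both inhibitor libraries were above both controls and within the range of the OL libraries, 3.39 to 5.46 CPM. The log2 fold change was 1.19 (standard error 0.20, interval 0.73 to 1.66, adjusted p = 0.00483). Klf4 was at 0.830 and 0.759 CPM with anti-miR-145 and at 3.07 and 2.16 CPM with anti-miR-ctl. The anti-miR-ctl libraries were thus the 2 highest of the 10, and the other 8 lay between 0.575 and 1.09 CPM. The log2 fold change was -1.73 (standard error 0.28, interval -2.39 to -1.08, adjusted p = 0.00424). Both calls were kept whichever of the 4 libraries was left out.

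Fli1 was at 7.09 and 6.07 CPM with anti-miR-145 and at 12.1 and 9.41 CPM with anti-miR-ctl. It fell by 0.72 on the log2 scale (standard error 0.16, adjusted p = 0.0176), and the call was lost without anti-miR-ctl replicate 1 (-0.55, adjusted p = 0.117) and with all 5 groups in 1 fit (adjusted p = 0.313). Tgfbr2 was at 36.9 and 38.5 CPM with anti-miR-145 and at 52.5 and 44.6 CPM with anti-miR-ctl. It fell by 0.38 (standard error 0.10, adjusted p = 0.034), a call also lost without anti-miR-ctl replicate 1 (-0.28, adjusted p = 0.32) and with all 5 groups in 1 fit (adjusted p = 0.454). The microglia marker sum was 1339 and 1045 CPM with anti-miR-145 and 1369 and 1269 CPM with anti-miR-ctl. Where 12.1% of all genes were called higher and 16.0% lower, 6 of the 14 markers were called higher and 6 lower. Among those called lower were Spi1, the ETS factor of myeloid cells, at 31.2 ± 8.55 CPM (SD, n = 2) against 83.7 ± 7.84 CPM, and Ptprc, the leukocyte antigen CD45, at 30.8 ± 4.18 CPM against 87.3 ± 4.59 CPM. Among those called higher were Cx3cr1, at 12.9 ± 0.891 CPM against 3.54 ± 1.03 CPM, and P2ry12, at 4.32 ± 0.152 CPM against 2.09 ± 0.0504 CPM. Of other markers, 5 of 7 neuron markers were called higher, where 12.1% of all genes were. Their sum was 154.6 to 155.7 CPM against 92.92 to 95.83 CPM. Of 8 astrocyte markers 4 were called lower, where 16.0% of all genes were, and 1 higher. Their sum was 407.9 to 453.1 CPM against 635.1 to 665.4 CPM. The part of these cells in the changes of the 8 genes was not tested.

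Adam17 was at 61.4 and 61.2 CPM with anti-miR-145 and at 77.9 and 77.5 CPM with anti-miR-ctl. Replicates differed by under 1 CPM, and the gene fell by 0.36 on the log2 scale (standard error 0.08, interval -0.54 to -0.17, adjusted p = 0.0159). Without either anti-miR-ctl library the value stayed between -0.37 and -0.39 and the adjusted p was 0.139 and 0.119. Irs1 was at 12.6 and 16.7 CPM with anti-miR-145 and at 21.1 and 18.1 CPM with anti-miR-ctl. Its log2 fold change of -0.43 (interval -0.79 to -0.08) did not pass the adjustment (adjusted p = 0.0719), but did without anti-miR-145 replicate 2 (-0.64, adjusted p = 0.00146). Smad3 was at 29.5 and 27.9 CPM against 33.0 and 32.7 CPM, a log2 fold change of -0.21 (adjusted p = 0.127) that was called without anti-miR-145 replicate 1 (adjusted p = 0.0384). Ppp3ca was at 89.4 and 96.8 CPM against 90.9 and 88.0 CPM, and its log2 fold change of 0.04 had an interval of -0.15 to 0.23 (adjusted p = 0.729).

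The effects of the mimic in OLs and of the inhibitor in OPCs were compared in a fit of the 8 libraries, as the first log2 fold change minus the second. These differ in cell stage and in time after transfection as well as in the oligonucleotide, and the 3 cannot be told apart. Of the 8 genes 1 was called, Adam17, against 10.2% of 16217 genes, with a difference of 0.43 (interval 0.18 to 0.68, adjusted p = 0.0462). The call was lost whichever of the 8 libraries was left out, where the adjusted p lay between 0.0564 and 0.215, and under 3 other settings. Klf4 differed by 1.55 (interval 0.32 to 2.79) and Klf5 by -0.84 (interval -1.61 to -0.08), with adjusted p-values of 0.109 and 0.148. Fli1 differed by 1.41 (interval -0.01 to 2.82) and Tgfbr2 by 0.83 (interval -0.14 to 1.81), and neither was called. Without OL miR-145 replicate 1, the differences were 1.93 for Klf4, 1.97 for Fli1 and 1.27 for Tgfbr2. On the mimic side these rest on miR-145 replicate 2 alone, the OL library with the highest microglia marker sum, 1180 CPM.

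Control cells of the 2 stages differed in 6 of the 8 genes, 3 in each direction, with 57.5% of 15721 genes called, 28.8% higher and 28.7% lower in OLs. OL miR-ctl and OPC anti-miR-ctl also differ in the kind of scrambled oligonucleotide and in the time after transfection, and these cannot be told apart from stage. Smad3 was higher in OLs by 1.11 on the log2 scale (adjusted p = 0.00334), Klf5 by 0.99 (adjusted p = 0.0146) and Adam17 by 0.33 (adjusted p = 0.0117). Fli1 was lower by 2.04 (adjusted p = 0.00154), a change in level from 10.7 ± 1.88 CPM in OPCs to 2.65 ± 0.627 CPM in OLs (SD, n = 2). Klf4 was lower by 1.46 (adjusted p = 0.011) and Tgfbr2 by 0.85 (adjusted p = 0.00369). Irs1 (0.45, adjusted p = 0.131) and Ppp3ca (-0.10, adjusted p = 0.327) were not called. The microglia marker sum was also lower in OL miR-ctl than in OPC anti-miR-ctl, with 8 of the 14 markers called lower and 1 higher. Astrocyte markers moved the other way, with 7 of 8 called higher in OLs and a sum of 5395 to 6417 CPM against 635.1 to 665.4 CPM. The part of either cell type in the values of the 8 genes was not tested. Without anti-miR-ctl replicate 1, 3 of the 8 genes were called, and Klf4, Klf5 and Adam17 were not. Klf5 and Adam17 were also lost without replicate 2, and Irs1 was gained without OL miR-ctl replicate 2 (0.72, adjusted p = 0.000137).

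Across the 5 groups, the order of mean levels differed between the genes. Klf4, Fli1 and Tgfbr2 were highest in OPC anti-miR-ctl. For all 3 that group lay clear of the next in order, and for Fli1 and Tgfbr2 each of the 4 lower groups overlapped its neighbour. For Klf4 the lowest group, OL miR-145+miR-219, lay below its neighbour OPC anti-miR-145 without overlap. Klf5 had its lowest level in OPC anti-miR-ctl, below the other 4 groups, each of which overlapped its neighbour. Smad3 was higher in the 3 OL groups, where neighbours overlapped, than in the OPC groups, which did not overlap each other. Irs1 was highest in OL miR-ctl and Ppp3ca in OPC anti-miR-145, and in both genes the highest group overlapped the next. Adam17 had no overlap between any neighbouring groups, from 102 ± 3.21 CPM (SD, n = 2) in OL miR-145 to 61.3 ± 0.168 CPM in OPC anti-miR-145. Over the 10 libraries the highest level was 5.65 times the lowest for Fli1, 5.34 times for Klf4 and 1.24 times for Ppp3ca.

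Fli1 and Tgfbr2 were the 2 of the 8 whose log2(CPM + 1) values were most alike, with a Pearson r of 0.945 over the 10 libraries. Klf4 and Klf5 had an r of -0.802. The non-member genes most like Fli1 were Laptm5, a lysosomal protein of leukocytes and microglia that is among the 14 markers (r = 0.989), and Fgd2 (r = 0.989), an exchange factor of myeloid cells. Those most like Tgfbr2 were Myo1f, a myosin of leukocytes (r = 0.969), and Lcp2, an adaptor of immune receptors (r = 0.968). For Klf5 they were Gpr34, a microglial receptor (r = 0.980), and Slco2b1 (r = 0.978), and for Klf4 they were Ptger4, a prostaglandin E2 receptor (r = 0.981), and Plagl2 (r = 0.979). Smad3 was most like Tbc1d30 (r = 0.994) and Zdhhc14 (r = 0.993), and Adam17 was most like Bcl3 (r = 0.985) and Mdm1 (r = 0.984). Irs1 was most like Ptprj (r = 0.967) and Flrt1 (r = 0.967), and Ppp3ca was most like Dtwd1 (r = 0.954) and Kdm2a (r = 0.941). The 10 points share 2 stages, 5 treatments and the cell makeup of each culture, so these values only describe the libraries.

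**Figure D3:**
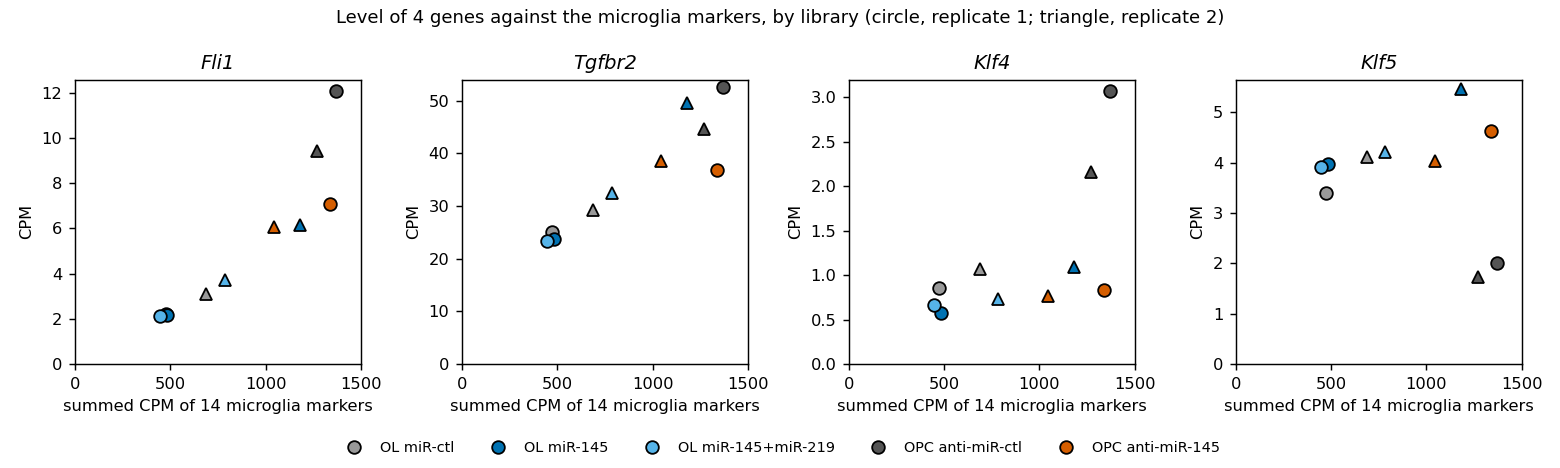
Level of Fli1, Tgfbr2, Klf4 and Klf5 in CPM (vertical axes, from 0) against the summed CPM of 14 microglia markers (horizontal axis), each symbol a library (circle, replicate 1; triangle, replicate 2), coloured by group. Among the OL libraries Fli1 and Tgfbr2 are highest where the marker sum is highest, at 1180 CPM. In OPCs, where the marker sums of the 2 groups overlap, anti-miR-145 libraries lie lower for Fli1, Tgfbr2 and Klf4 and higher for Klf5. These sums hide opposite changes, as 6 of the 14 markers were called higher and 6 lower with anti-miR-145.

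Genes that act with the 8, in lists compiled for each pathway, were examined in the same fits. In OL miR-145 against OL miR-ctl 0 of their 143 tested genes were called by edgeR, against 0.0% of all 15461 genes. At an unadjusted p under 0.05 there were 24 of the 143, against 2067 of all genes (13.4%). DESeq2 called 9 of the 143, against 649 of all genes (4.2%). Among the 9 were Sox9, Igf1, Igf2, Klf11, Skil, Tnfrsf1a, Actn1 and Ezr. With all 5 groups in 1 fit 1 list gene was called, Igf2, and 32 of all genes were. In OPCs 49 genes of these lists were called. The share called ranged from 23.3% to 45.0% between lists, against 28.1% of all genes, and each list held genes that rose and genes that fell. Without anti-miR-ctl replicate 1, 32 of the 49 were kept, and without replicate 2, 36 were. Those lost in both cases included Insr, Tgfbr1, Rhbdf1, Tnfrsf1a, Cabin1, Klf3, Pls3, Elf1 and Elf2. Those lost without replicate 1 also included Cdk6, Egfr, Fkbp1a, Nfatc1 and Nfatc2, and those lost without replicate 2 also included Klf10 and Pik3r2. Egfr was also lost without anti-miR-145 replicate 2 and by DESeq2. With all 5 groups in 1 fit 29 of the 49 were kept, and those lost included Myc, Tgfb1, Rcan2, Cdk6, Egfr and Tgfbr1.

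Among 30 tested mRNAs that have been reported as targets elsewhere, 4 rose and 3 fell with anti-miR-145, and the median over the 30 was -0.02 on the log2 scale. Sox9, a transcription factor of glial progenitors, was at 79.8 ± 5.07 CPM (SD, n = 2) against 14.3 ± 0.548 CPM, a log2 fold change of 2.46 (adjusted p = 2.72e-05). Ace, the angiotensin-converting enzyme, was at 4.51 ± 0.555 against 0.409 ± 0.0749 CPM (3.43, adjusted p = 0.000168). Myc and Egfr also rose, by 0.66 and 1.08 on the log2 scale, while Cdk6, Swap70 and Map3k3 fell by 0.78, 0.64 and 0.57. In OLs given the mimic, 12 of the 30 had a positive estimate, and their median was -0.10, where all genes had -0.01. The miR-145 libraries lay above both controls for 11 of them and below both for 12, where 47.3% of all genes had no overlap. Against 13.4% of all genes, 8 of the 30 had an edgeR p below 0.05 before adjustment. These were falls of Sox2 (-0.29), a target named by the study, Hdac2 (-0.37), Ets1 (-0.43) and Rtkn (-0.29, more than 1 gene ID), and rises of Egfr, Nedd9, Sox9 and Ctnnd1. Sox9 had a log2 fold change of 0.96 (adjusted p = 0.158) and the catenin Ctnnd1 one of 0.40 (adjusted p = 0.224), neither called by edgeR. DESeq2 called Sox9 (adjusted p = 1.03e-05). The 8 astrocyte markers also had positive log2 fold changes in OLs (median 0.87, none called). In OPCs, where Sox9 rose, the sum of these 8 markers was lower. Of the 8, 4 were called lower and 1 higher, against 16.0% lower and 12.1% higher over all genes. The single markers differed. Gfap was at 41.25 and 51.77 CPM with anti-miR-145 and at 8.12 and 7.80 CPM with anti-miR-ctl, the direction of Sox9. Slc1a3 was at 169.3 and 205.4 CPM against 398.4 and 375.8 CPM. The part of astrocyte RNA in the Sox9 values was not tested. Klf4 and Klf5 belong to a family of which 14 other genes were tested in OPCs, with 2 called in each direction. Klf9, a thyroid hormone-responsive member, rose by 1.21 (adjusted p = 0.000534), as did Klf3, and Klf8 fell by 1.36 (adjusted p = 0.0058), as did Klf10. In OLs the smallest p-values were those of Klf11 (-0.63, adjusted p = 0.164) and Klf10 (-0.50, adjusted p = 0.236).

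Of 20 insulin and IGF signalling genes, 4 rose and 1 fell in OPCs. The ligands Igf1 and Igf2 rose by 1.73 (adjusted p = 0.000293) and 2.46 (adjusted p = 0.00119), the insulin receptor Insr by 0.52 (adjusted p = 0.0364) and Pik3r2 by 0.50, while the receptor adaptor Grb10 fell by 1.55. Irs2, the closest relative of Irs1, had a log2 fold change of -0.06 (adjusted p = 0.674), and Igf1r one of -0.11 (adjusted p = 0.532). In OLs Igf2 had a log2 fold change of -1.55 and Igf1 one of 1.40, with adjusted p-values of 0.158 and 0.297. DESeq2 called both (adjusted p = 3.19e-05 and 0.0227), and with all 5 groups in 1 fit Igf2 was called (adjusted p = 0.0449). Of 20 TGF-β pathway genes, 3 rose and 4 fell in OPCs. Id1, a target of SMAD signalling, fell by 1.85 (adjusted p = 8.27e-05), and Skil, which encodes a SMAD co-repressor, by 1.66 (adjusted p = 0.000166). The ligand Tgfb1 and its binding protein Ltbp1 fell by 1.06 and 1.02. The receptors Tgfbr1 and Tgfbr3 rose by 0.31 (adjusted p = 0.0432) and 1.32 (adjusted p = 0.000789), opposite in sign to Tgfbr2. Smad2 (-0.25, adjusted p = 0.0865) and Smad4 (0.14, adjusted p = 0.327) were not called. In OLs the smallest p-values were those of Skil (-0.58, adjusted p = 0.186) and the activin receptor Acvr1b (-0.38, adjusted p = 0.236).

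Of 20 regulators, substrates and ligands related to Adam17, 4 rose and 5 fell in OPCs. Rhbdf1 and Rhbdf2 encode the inactive rhomboid proteins that bring ADAM17 to the cell surface. Rhbdf1 rose by 0.37 (adjusted p = 0.0177), at 89.3 ± 0.739 CPM against 68.7 ± 3.44 CPM, and Rhbdf2 fell by 1.65 (adjusted p = 0.000307), at 4.84 ± 0.372 CPM against 15.0 ± 2.02 CPM. Adam10, the related sheddase, had a log2 fold change of 0.25 (adjusted p = 0.0929). The TNF receptor Tnfrsf1b fell by 2.17 (adjusted p = 0.00012), and Tnfrsf1a rose by 0.45 (adjusted p = 0.00732). In OLs Tnfrsf1a had a log2 fold change of 0.60 (adjusted p = 0.215) and Egfr one of 0.98 (adjusted p = 0.236). Of 14 calcineurin and NFAT genes, 3 rose and 2 fell in OPCs. Rcan2, an inhibitor of calcineurin, rose by 0.72 (adjusted p = 0.0024), Fkbp1a, the FK506-binding protein, by 0.56 (adjusted p = 0.00448) and Cabin1 by 0.31, and the transcription factors Nfatc1 and Nfatc2 fell by 0.71 and 0.87. The other calcineurin subunits Ppp3cb (0.12), Ppp3cc (-0.07) and Ppp3r1 (-0.16) were not called, and neither was Ppp3ca. In OLs Calm3 (0.22, adjusted p = 0.475), a symbol carried by more than 1 gene ID, and Nfatc4 (1.03, adjusted p = 0.528) had the smallest p-values.

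Fscn1 encodes the actin-bundling protein fascin, and 18 other actin regulators were tested in its place. In OPCs 1 rose and 6 fell. The formin Diaph3 fell by 1.59 (adjusted p = 0.000157) and Vasp by 1.61 (adjusted p = 0.000329). Evl, Lcp1, Actn1 and Ezr fell by 0.66, 0.78, 0.67 and 0.57, and Pls3, a plastin, rose by 0.46. In OLs Actn1 and Ezr had log2 fold changes of 0.64 (adjusted p = 0.173) and 0.62 (adjusted p = 0.188). Of 15 ETS factors other than Fli1, 1 rose and 5 fell in OPCs. Ets2 fell by 1.69 (adjusted p = 8.8e-05) and Spi1 by 1.44 (adjusted p = 0.00167), Elf1, Elf2 and Elf4 fell by 0.46, 0.31 and 1.24, and Etv1 rose by 0.68. In OLs Elf1 had a log2 fold change of -0.47 (adjusted p = 0.194) and Etv1 one of 0.51 (adjusted p = 0.225). Lcp1 and Spi1 are also expressed by microglia, and the part of microglial RNA in these values was not tested.

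**Figure D4:**
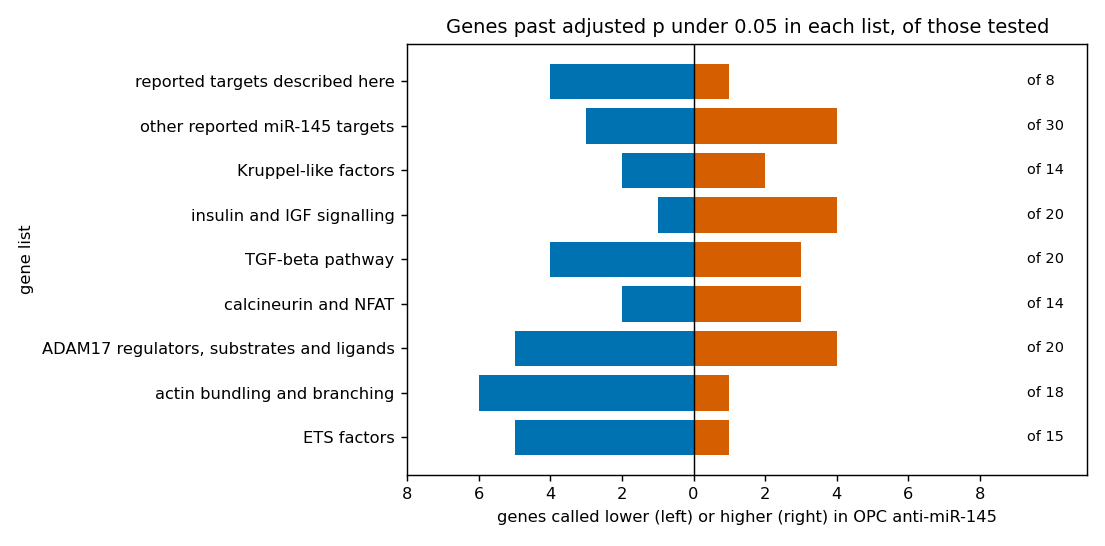
Number of genes called lower (left of 0) and higher (right of 0) in OPC anti-miR-145 against OPC anti-miR-ctl in each list, at an adjusted p under 0.05, with the number tested at the right edge. Calls in both directions are seen in every list, from 1 rise and 6 falls of 18 actin regulators to 4 rises and 1 fall of 20 insulin and IGF genes.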

How the data were processed

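The authors assigned reads to GENCODE Rnor6.0 rat transcripts with Salmon 0.12.0 and deposited gene-level estimated counts without normalization, for 23487 genes in 10 libraries. Their deposited DESeq2 table for OL miR-145 (fold changes and p-values, not used) supplied the symbols, given for 14561 of 16129 gene IDs. Counts were rounded. Each comparison was fitted on its own 4 libraries (the difference of effects on 8) with edgeR 4.0.16 (R 4.3.3; TMM, estimateDisp, glmQLFit, glmQLFTest) after a filter of 5 or more counts in 2 or more libraries. Calls needed an adjusted p under 0.05 (Benjamini-Hochberg, over all genes tested). The standard error is the log2 fold change divided by the square root of F, and intervals are 95%. Functions were tested on simulated data. The study describes each N of primary culture in general as cells from a separate animal, naming mouse where these cells are rat. The labels do not say it of these libraries, so p-values measure the spread between libraries, which may in part be technical. Counts of same-group libraries differed beyond counting error in every group.

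The members, gene lists and tests were chosen with earlier results of these data known. Named by rule are all members, their partners and the 2 genes of highest r with each member. Also named by rule are the 2 genes of smallest p per list in OL miR-145 and in OPCs. All other list genes and marker genes were named after their values were seen. Alternatives were DESeq2 1.42.0, its size factors, no filter, at least 50 counts in 2 libraries, all groups in 1 fit, a replicate block and leaving out each library. Symbols with more than 1 gene ID are uncertain. Of the called list genes, 1 is counted but not reported here by name.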

Additional observations from a re-analysis of the deposited data

How the results depend on the processing

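In OL miR-145 against miR-ctl, 0 of the 8 genes were called under each alternative, while the count over all genes, 0, was 649 by DESeq2, 32 with all 5 groups in 1 fit and 2272 with the replicate block. For miR-145+miR-219 against miR-ctl it was 106 by DESeq2, 1 with no filter and 132 with the block. Against miR-145 it was 9 by DESeq2 and 184 with the block, with 0 of the 8 in each. With a library left out these counts stayed at 0. In OPCs, 4348 genes and 5 of the 8 became 2553 and 3 with all 5 groups in 1 fit, where Fli1 (adjusted p = 0.313) and Tgfbr2 (adjusted p = 0.454) were lost, and with a library left out 2348 to 7133 genes and 2 to 6 of the 8 were called. The counts of 9042 and 6 between controls became 4780 to 10306 and 3 to 7. For mimic minus inhibitor, 1658 genes became 2615 by DESeq2 and 393 to 1833 with a library left out, and 1 of the 8 became 0 with no filter, with all groups and with the block, and 0 to 3 with a library left out. A group left with 1 library is assumed to vary like the others. The causes were not tested.

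No source pairs the replicate numbers, so the block is an alternative only. Deviations of same-numbered libraries correlated at 0.396 to 0.622 among OL groups, at 0.0635 between controls and at -0.141 in OPCs. There the block called 3963 genes, 5 of the 8 among them, and a crossed pairing, added after seeing the data, 5536 genes and 6 of the 8. Between controls the block called 7 of the 8. In OL miR-145 against miR-ctl the block called 38 of the 143 list genes and 2272 of all 15461 genes, where the unblocked fit called 0 of either. Among the 38 were Sox9 (adjusted p = 3.92e-10), Ctnnd1 (0.0138), Igf1 (8.79e-15) and Igf2 (1.01e-15). Depth limits Klf4 most, at 20 to 133 counts per library.

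With a library left out, signs turned as follows, none of them called in the full fit. For OL miR-145 against miR-ctl the log2 fold change ran from -0.73 to 0.19 for Klf4, from -0.27 to 1.23 for Fli1, from -0.44 to 0.028 for Smad3 and from -0.19 to 0.87 for Tgfbr2. For miR-145+miR-219 against miR-ctl it ran from -0.54 to 0.071 for Irs1, from -0.0068 to 0.26 for Klf5, from -0.31 to 0.49 for Fli1, from -0.38 to 0.14 for Smad3, from -0.22 to 0.26 for Tgfbr2 and from -0.0091 to 0.071 for Ppp3ca. Against miR-145 it ran from -0.66 to 0.28 for Klf4, from -0.44 to 0.033 for Klf5, from -1.09 to 0.42 for Fli1, from -0.17 to 0.34 for Smad3 and from -0.84 to 0.23 for Tgfbr2. In OPCs it ran from -0.010 to 0.086 for Ppp3ca and from -0.16 to 0.00045 for Irs2. The difference of effects ran from -0.19 to 0.41 for Irs1 and from -0.20 to 0.26 for Smad3, and that of Smad3 was -0.018 with all 5 groups in 1 fit against 0.02 in its own fit.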
